A study of Homo sapiens with 13 samples.

Results

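The 9p21 span is the stretch of human chromosome 9 from 19000 to 27000 kb (hg19), on the short arm. It holds MLLT3, the cluster of type I interferon genes, MTAP and the neighbouring genes CDKN2A and CDKN2B. Its members were all CUT&RUN peaks with a summit inside these limits, 4233 of 3429979 peaks in 12 lists. Of these, 1269 came from the 6 LEF1 lists and 2964 from the 6 TCF7L2 lists. The span makes up 0.259% of the bases of the listed chromosomes and held 0.123% of the peaks.

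The peaks were measured in Nalm6, an established line of B-cell acute lymphoblastic leukaemia, grown in medium with charcoal-stripped serum. In CUT&RUN an antibody guides a nuclease to the chromatin where its target protein sits, and the DNA cut free is sequenced. Cells were kept for 24 h with 5 µM of prednisolone, a glucocorticoid drug, or served as controls, which the protocol gives vehicle and the sample labels no treatment. Each of the 4 groups, LEF1 or TCF7L2 in control or prednisolone cells, had 3 replicates from separate experiments, all on the same cell line. The IgG sample was not analysed here.

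LEF1 and TCF7L2 are DNA-binding proteins of the TCF/LEF family, which bring beta-catenin to Wnt target genes. In 9p21, MLLT3 encodes a chromatin reader that is a frequent fusion partner of KMT2A in leukaemia, and the type I interferon genes encode antiviral cytokines. MTAP encodes an enzyme that salvages methionine and adenine. CDKN2A encodes an inhibitor of the kinases CDK4 and CDK6 and, from a separate start, a protein that stabilises p53, and CDKN2B encodes a related kinase inhibitor. Deletions that remove CDKN2A, often with its neighbours, are among the frequent lesions of acute lymphoblastic leukaemia. Peak lists carry no measure of DNA copy number, so a lack of bound protein and a lack of DNA cannot be told apart in them.

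The DNA just upstream of CDKN2A, CDKN2B, MTAP and IFNA14 is shown because no list had a peak in the intervals that hold them, as described next. Promoter sequences came from RefSeq on GRCh38.p14, and their coordinates must not be set beside the hg19 coordinates used for peaks. Each run is the 250 bases before a gene's start, 5′ to 3′ on the gene's own strand, with any TCF/LEF motif in capitals.
CDKN2A, upstream start, chr9:21995325-21995574, minus strand: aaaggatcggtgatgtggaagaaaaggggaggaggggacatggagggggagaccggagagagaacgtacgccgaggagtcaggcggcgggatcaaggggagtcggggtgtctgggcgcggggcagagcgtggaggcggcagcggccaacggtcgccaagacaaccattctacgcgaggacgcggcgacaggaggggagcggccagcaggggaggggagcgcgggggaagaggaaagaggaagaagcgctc
CDKN2A, downstream start, chr9:21974858-21975107, minus strand: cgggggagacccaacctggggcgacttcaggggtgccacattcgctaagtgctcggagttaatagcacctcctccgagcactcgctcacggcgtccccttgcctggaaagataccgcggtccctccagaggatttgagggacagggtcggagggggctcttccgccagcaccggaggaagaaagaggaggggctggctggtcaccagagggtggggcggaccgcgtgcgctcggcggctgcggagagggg
CDKN2B, chr9:22009306-22009555, minus strand: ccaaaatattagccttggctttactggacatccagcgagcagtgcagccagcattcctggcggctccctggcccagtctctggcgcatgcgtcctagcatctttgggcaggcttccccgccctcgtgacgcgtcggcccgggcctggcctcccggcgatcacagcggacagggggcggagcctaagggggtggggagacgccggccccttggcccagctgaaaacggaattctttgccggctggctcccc
MTAP, chr9:21802386-21802635, plus strand: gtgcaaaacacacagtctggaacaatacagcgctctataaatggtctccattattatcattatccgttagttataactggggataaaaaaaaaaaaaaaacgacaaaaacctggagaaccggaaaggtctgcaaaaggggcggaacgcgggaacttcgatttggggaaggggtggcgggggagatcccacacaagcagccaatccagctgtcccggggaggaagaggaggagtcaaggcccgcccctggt
IFNA14, chr9:21240006-21240255, minus strand: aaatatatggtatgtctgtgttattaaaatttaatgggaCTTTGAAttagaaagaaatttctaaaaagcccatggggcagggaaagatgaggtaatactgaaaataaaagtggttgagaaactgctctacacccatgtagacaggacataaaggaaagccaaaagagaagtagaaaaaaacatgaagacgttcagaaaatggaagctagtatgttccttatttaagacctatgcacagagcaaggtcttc
The motif searched, on either strand, was the word CTTTG with AA, AT, TA or TT as its last letters. Among 18 promoters of 17 matched genes (MLLT3, MTAP, CDKN2A, CDKN2B and 13 interferon genes), that of IFNA14 held the motif, once, and the other promoters of this set did not. Over all 35116 RefSeq promoters cut to the same length, 11.96% held it. IFNA6, IFNA16 and IFNW1 were not searched.

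The 12 lists held between 128863 and 395786 peaks. Weak peaks were frequent for TCF7L2, where 48.4% to 78.5% of a list had a q-value of 1, while for LEF1 this was 0 to 20.7%. The libraries also fell into sets by the shortest peak in the list. In set A, made of control 1 and prednisolone 2 and 3, it was 164 to 165 bp for LEF1 and 193 to 201 bp for TCF7L2. In set B, made of control 2 and 3 and prednisolone 1, it was 187 to 197 bp and 158 to 167 bp.

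No list had a peak over the interferon cluster (21 to 21.5 Mb), MTAP (21.80 to 21.87 Mb) or CDKN2A and CDKN2B (21.97 to 22.01 Mb). This held for both factors, in control and in prednisolone cells, and both for summits and for any overlap of a peak with the interval. The nearest summit in any list lay 38.0 kb beyond the interferon cluster, at position 21538029. From CDKN2A and CDKN2B the nearest summit was 136 kb away, at 22146067, and from MTAP 94.8 kb away, at 21705190. The intervals for these genes lie within 1 continuous stretch that was nearly free of peaks. No interval was set for MLLT3, so peaks over it were not counted.

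The stretch was found by counting summits in bins of 100 kb and calling a bin peak-poor when it held at most 3 summits over all 12 lists together. Of the 80 bins of the span, 18 were peak-poor, or 22.5%, and they formed a single run. Over all listed chromosomes 7.37% of 30961 bins were peak-poor. Most of those lay in 26 longer runs of at least 29 bins with no summit at all, which include the unsequenced blocks that hg19 holds at centromeres and on the short arms of acrocentric chromosomes. Outside these runs 0.507% of 28824 bins were peak-poor, and the run in 9p21 was the longest, followed by a run of 9 bins on chromosome 2. In the span the other 62 bins held 35 to 175 summits each, with a median of 51.5, below the median of 98 over all bins.

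Taken from the last summit before the run to the first one after it, the peak-poor stretch reached from 20299733 to 22146067 on chromosome 9. It was 1.85 Mb long and made up 23.1% of the span. Between these positions the 12 lists together held 6 summits. At the density that each list had in the rest of the span, 29.4 to 124 summits per LEF1 list and 56.1 to 257 per TCF7L2 list would have filled a stretch of this length. LEF1 prednisolone 2 had 1 summit there and the other LEF1 lists had none. Each TCF7L2 list had 1, except prednisolone 3, which had none.

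The 6 peaks inside the stretch were weak, with folds over the modelled background of 1.93 to 2.61 and −log10 q-values of at most 0.290. None of them overlapped another. TCF7L2 controls 1, 2 and 3 had theirs at 20655955, 20752076 and 20753449, toward the MLLT3 side of the interferon cluster. Those of LEF1 prednisolone 2 and TCF7L2 prednisolone 2 lay at 21538029 and 21541245, and that of TCF7L2 prednisolone 1 at 21705190, between the interferon cluster and MTAP. The control summits thus lay before the interferon cluster and the prednisolone summits after it, but with 1 summit per list this was not tested.

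**Figure D1:**
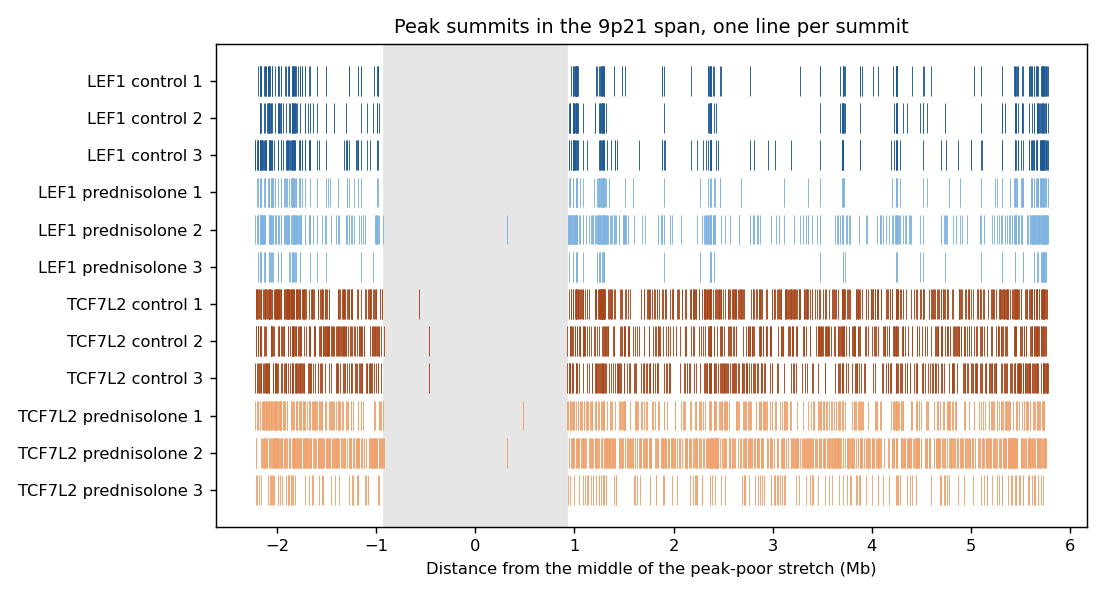
Each vertical line is the summit of 1 peak, placed by its distance in Mb from the middle of the peak-poor stretch (shaded, 1.85 Mb long), with 1 row per library. The 6 summits inside the stretch stand alone, while the last summits before it and the first after it lie close together in all 12 libraries.

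The edges of the stretch lay close together in all libraries. On the left, toward the chromosome end, the last summit lay between 20187436 and 20299733, a spread of 112 kb over the 12 lists. On the right the first summit lay between 22146067 and 22183361, a spread of 37.3 kb. Edges of LEF1 and TCF7L2 lay within these limits, as did those of control and prednisolone cells. The outermost left edge belonged to LEF1 prednisolone 3, the shortest of all lists, and the outermost right edge to LEF1 control 1. The inner limits were set from all 12 lists together, and lone summits inside the stretch were passed over. Part of this closeness thus follows from the definition.

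Within single lists the longest distance between neighbouring summits of the span was 1.94, 1.92 and 1.92 Mb in LEF1 controls 1, 2 and 3. After prednisolone it was 1.93, 1.24 and 1.98 Mb. For TCF7L2 it was 1.52, 1.40 and 1.39 Mb in control cells, and 1.41, 1.24 and 1.90 Mb after prednisolone. Lists with a lone summit inside the stretch had the shorter distances, and the groups overlapped. Over the union of the 12 lists, the longest distance with no summit at all was 785 kb, from 20753449 to 21538029, and it covered the whole interferon cluster. With peaks kept from a −log10 q-value of 2 upward it was 1928 kb, since none of the 6 inner peaks reached that value.

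The span was thinly occupied both with the stretch and, in most lists, without it, and the factors differed. Density was taken as summits per Mb relative to the same list's density over the rest of the listed chromosomes. The values that come first are for the whole span, stretch included. For LEF1 it reached 0.262, 0.302 and 0.319 of the list average in controls 1, 2 and 3 (mean 0.294 ± 0.0293 SD, n = 3). Prednisolone lists reached 0.292, 0.411 and 0.294 (0.332 ± 0.0681, n = 3). For TCF7L2 the controls had 0.567, 0.546 and 0.480 (0.531 ± 0.0452, n = 3), and the treated lists 0.564, 0.837 and 0.501 (0.634 ± 0.179, n = 3). Every TCF7L2 list stood above every LEF1 list, and treated and control lists overlapped for both factors. With the peak-poor stretch left out, the group means were 0.383 and 0.432 for LEF1 and 0.689 and 0.823 for TCF7L2. The rest of the span therefore held fewer peaks than the same length elsewhere in 11 of 12 lists, TCF7L2 prednisolone 2 being the exception at 1.09. Among stronger peaks the order of the factors depended on the choice of peaks. Counting peaks from a −log10 q-value of 2 upward, the mean density of the span was 0.258 of the list average for LEF1 and 0.138 for TCF7L2. The TCF7L2 value rests on 0 to 5 peaks per list, against 23 to 55 for LEF1. Among the 20000 top peaks of each list the means were 0.245 and 0.264, an order that rests partly on equal peaks ranked at random. Without the peaks equal to the last, the log2 difference of span share, TCF7L2 minus LEF1, was −0.20 (exact permutation within treatment, p = 0.43).

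The sides of the stretch differed as well. The 1.3 Mb before it held 26.9 to 91.6 summits per Mb in the LEF1 lists, and the 4.85 Mb after it 13.0 to 60.6. For TCF7L2 the left side held 33.1 to 153 summits per Mb and the right side 29.7 to 135. In each of the 12 lists the left side was denser than the right.

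**Figure D2:**
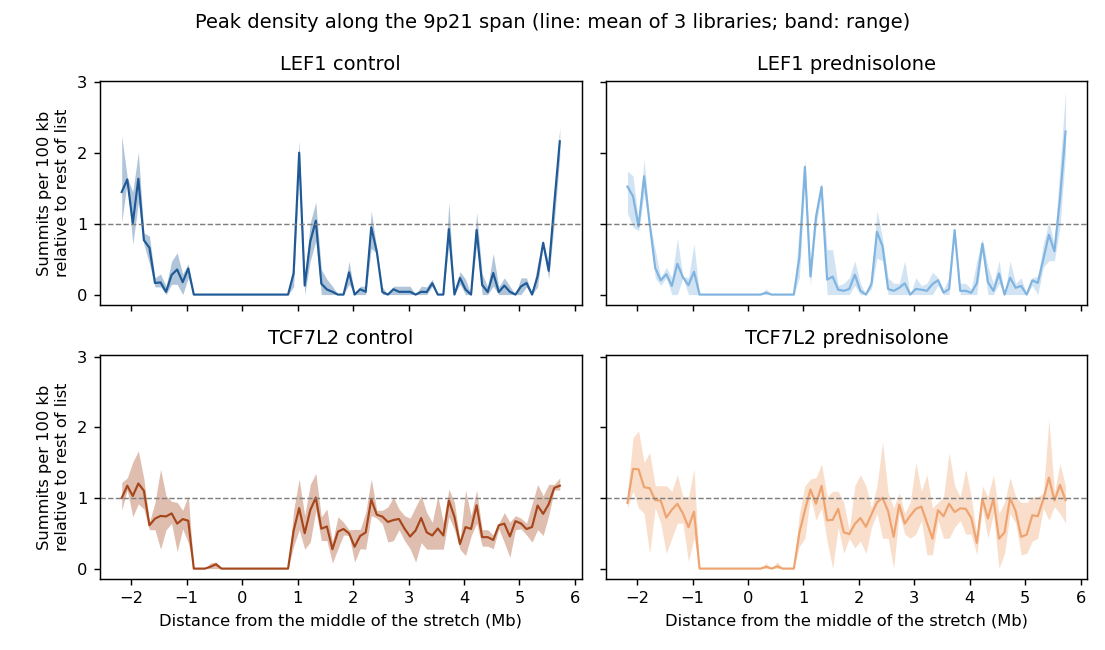
Summits per 100 kb, divided by the density of the same list outside the span, against distance in Mb from the middle of the peak-poor stretch. Lines are means of 3 libraries and bands their range; the dashed line marks the density of the rest of the list. LEF1 shows a few dense bins with near-empty stretches between them, and TCF7L2 a more even cover.

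LEF1 peaks were bunched. In the LEF1 lists 42.5% ± 5.85 of the summits of the span lay in the 6 densest of the 62 bins outside the run, and 18.1% ± 2.01 in the TCF7L2 lists (mean ± SD, n = 6 each). Between 4 and 32 of these bins held no summit in a LEF1 list, and between 0 and 3 in a TCF7L2 list. Number of peaks moves with this count, but lists of like size still stood apart: LEF1 control 1, with 193 peaks in the span, left 23 bins empty and had 45.1% in its densest bins, while TCF7L2 prednisolone 3, with 187, left 3 empty and had 20.3%. In 4 bins every LEF1 list exceeded its own average density: 19.0 to 19.1 Mb (mean 1.49 times), 19.3 to 19.4 Mb (1.66 times), 22.2 to 22.3 Mb (1.91 times) and 26.9 to 27.0 Mb (2.24 times). The bin from 22.2 Mb begins just right of the peak-poor stretch. TCF7L2 lists did so in 1 bin, 19.1 to 19.2 Mb (1.29 times).

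By megabase, LEF1 density was 0.790 ± 0.0817 of the list average in the first (19 to 20 Mb) and 0.0801 ± 0.0268 in the second, which enters the peak-poor stretch (mean ± SD over 6 libraries here and in the next values). In the third (21 to 22 Mb), inside the stretch, it was 0.00132 ± 0.00324. It was 0.515 ± 0.121 in the fourth, between 0.150 and 0.223 in the 3 megabases from 23 to 26 Mb, and 0.565 ± 0.0776 in the last. TCF7L2 had 0.976 ± 0.197 in the first megabase and 0.214 ± 0.0767 in the second. It then had 0.00293 ± 0.00457 in the third, 0.648 ± 0.134 in the fourth, between 0.654 and 0.673 from 23 to 26 Mb, and 0.822 ± 0.171 in the last. Both factors thus fell to near 0 in the same megabase, and they parted most from 23 to 26 Mb, where LEF1 peaks were sparse.

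TCF7L2 density exceeded that of LEF1 by 0.450, 0.521 and 0.472 of the list average in the 3 megabases from 23 to 26 Mb. It was higher in 6 of 6 pairs matched by treatment and number, in each of them. An exact permutation test of the antibody labels within treatment gave p = 0.005, the smallest it can give, and 0.008 after Benjamini-Hochberg adjustment over 8 megabases. The second and last megabases passed with the same values (differences 0.134 and 0.256). For the first, the third and the fourth the adjusted p was 0.0914, 0.700 and 0.080 in the same permutation test. Single libraries bore on these calls: without TCF7L2 prednisolone 3 the adjusted permutation p of the first and of the fourth megabase was 0.0267 and 0.0457, and without LEF1 prednisolone 2 that of the fourth megabase was 0.0267. Of TCF7L2 peaks from 23 to 26 Mb, 46.6% to 90.9% had a q-value of 1 per list and megabase. In the full TCF7L2 lists this was 48.4% to 78.5%. Over all 6 lists 5, 0 and 0 TCF7L2 peaks in these megabases had a −log10 q-value of 2 or more, against 20, 20 and 11 LEF1 peaks. Full lists differed in the same direction, with 3071 to 9730 such peaks per TCF7L2 list and 46742 to 79899 per LEF1 list. The part of weak peaks in the difference was not tested.

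**Figure D3:**
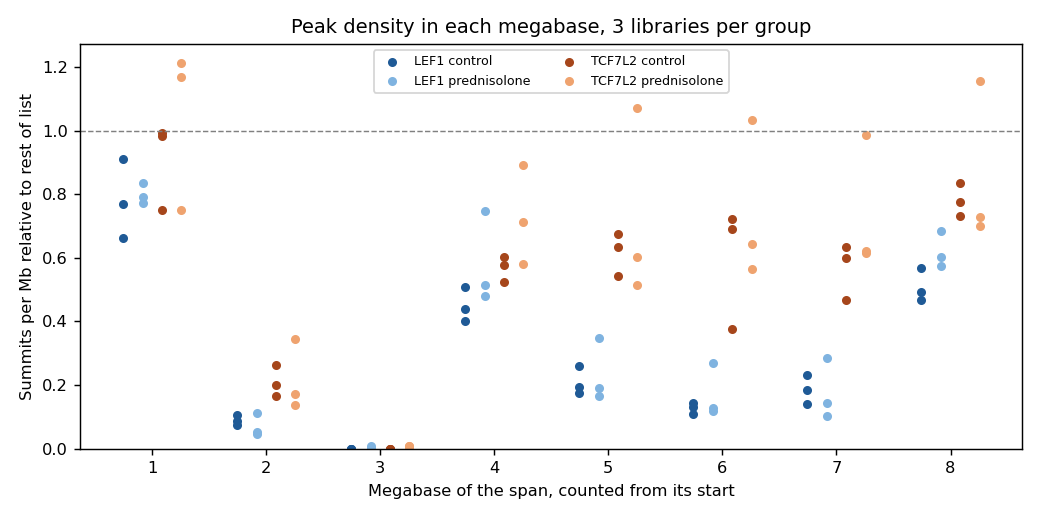
Summits per Mb relative to the rest of the list in each of the 8 megabases, counted from the start of the span. Each point is 1 library; the third megabase lies inside the peak-poor stretch and is near 0 in all 12 lists.

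As a share of the list, the span held 0.0679%, 0.0781% and 0.0827% of the peaks in LEF1 controls 1, 2 and 3, or 193, 166 and 216 peaks. After prednisolone it held 0.0757%, 0.106% and 0.0760%, or 182, 414 and 98 peaks. The treated group overlapped the controls, and prednisolone 2, the longest LEF1 list, stood highest. On the log2 scale the treated share was higher by 0.16 (p = 0.6, two-sided exact permutation test; 0.8 adjusted over the 4 tests of span share). Replicate 2 decided the sign, since without it the difference was −0.0021. Among stronger peaks the sign turned: with a −log10 q-value of 5 or more the difference was −0.62 (p = 0.1 by exact permutation, which 3 libraries against 3 cannot go below). Those lists had 21, 19 and 22 LEF1 peaks in the span in control cells and 15, 14 and 9 after prednisolone, which do not overlap. The full lists held 27309, 25467 and 27301 such peaks in control cells and 26734, 25594 and 21764 after prednisolone. With a −log10 q-value of 2 or more the difference was −0.41 (exact permutation test, p = 0.2). There the counts overlapped, at 55, 43 and 53 against 51, 35 and 23. How often other windows of this length separate in this way was not tested.

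For TCF7L2 the shares were 0.147%, 0.141% and 0.124% in control cells, or 572, 466 and 419 peaks. They were 0.146%, 0.217% and 0.130% after prednisolone, or 463, 857 and 187 peaks. Again prednisolone 2 stood above all other lists, while prednisolone 1 and 3 fell within the control range. The log2 difference was 0.22 (p = 0.5, two-sided exact permutation test; 0.8 adjusted), and 0.0056 without prednisolone 2. Within sets A and B the differences were 0.41 and −0.09 for LEF1 and 0.19 and 0.14 for TCF7L2, each with a single library of one treatment and no test. The treatment differences of both factors themselves differed by 0.06 (exact permutation within antibody, p = 0.815), which was not past the threshold. Among the 20000 top peaks of each list they differed by 0.89 (permutation p = 0.11), by 0.30 without the peaks equal to the last (permutation p = 0.56) and by 0.94 with all of them (permutation p = 0.03).

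Between the factors the share did differ. TCF7L2 lists had a larger share of their peaks in the span than LEF1 lists, by 0.88 on the log2 scale or 1.84-fold (exact permutation test within treatment, two-sided, p = 0.005, the smallest possible, and 0.02 adjusted over the 4 tests of span share). It was larger in 6 of 6 pairs, by 0.59 to 1.11, with means of 0.97 in set A and 0.80 in set B. The difference was not found among each list's 20000 top peaks by −log10 p-value, where it was 0.026 (exact permutation test, p = 0.935). Of those top peaks 9 to 16 per LEF1 list and 8 to 22 per TCF7L2 list lay in the span. The list with 22 was TCF7L2 prednisolone 3, where a random order among equal peaks filled 7599 of the 20000 top places. Of peaks with a −log10 q-value of 2 or more, the span held 23 to 55 LEF1 peaks and 0 to 5 TCF7L2 peaks per list. The full lists held 46742 to 79899 such LEF1 peaks and 3071 to 9730 such TCF7L2 peaks, so these counts alone do not set the span apart.

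**Figure D4:**
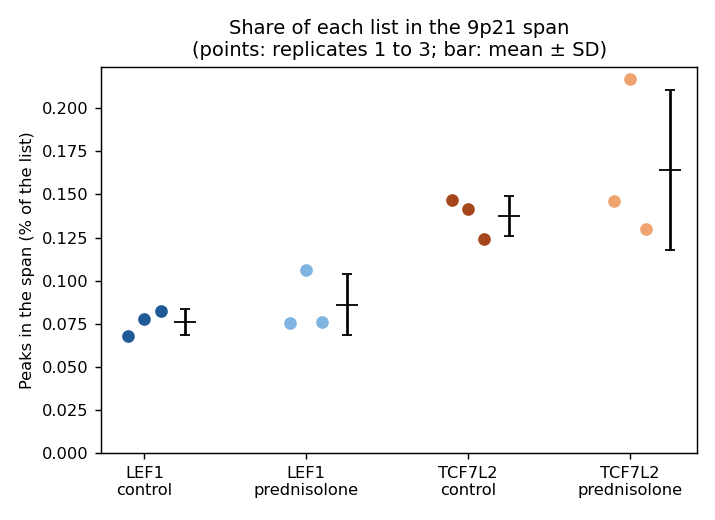
Peaks in the span as a percent of each list, from 0. Points are the 3 replicates of a group and bars the mean ± SD; all TCF7L2 points lie above all LEF1 points, and control and prednisolone points overlap for both factors.

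Merging the 20000 top peaks of the 6 lists of a factor wherever they overlapped by at least 1 bp gave 23 LEF1 regions in the span, of 36903 in all. None lay inside the peak-poor stretch, 8 lay left of it and 15 right of it. A top peak in all 6 libraries marked 5 of the 23, or 21.7%, close to the 20.5% of all LEF1 regions. For TCF7L2 there were 65 regions in the span of 79362, with 16 left of the stretch, 49 right of it and none inside. None of the 65 had a top peak in all 6 libraries, against 2.20% of all TCF7L2 regions, and 56 had one in a single library, or 86.2%, against 78.1% of all TCF7L2 regions. Some of these regions rest on peaks equal to the last top peak, which were ordered at random. Without the equal peaks the span had 46 TCF7L2 regions, and with all of them 109.

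The strongest LEF1 region, judged by its lowest place in any of the 6 lists, was chr9:23599849-23601441 (1593 bp). Its peak ranked 2854, 798 and 460 in the control lists, with folds of 10.7, 16.03 and 18.4, and 1738, 2867 and 1517 after prednisolone, with folds of 15.3, 9.77 and 13.4. Ranks of the treatments overlapped. The next, chr9:22511359-22519041, was 7683 bp long and lay 371 kb right of the peak-poor stretch. It ranked 827, 2738 and 2997 in control cells and 1224, 1069 and 506 after prednisolone, again overlapping. All 6 full TCF7L2 lists also had a peak within this region, weak ones included. At chr9:22516540-22517116 inside it, TCF7L2 peaks ranked 6412, 135562 and 34658 in control cells and 50315, 262726 and 2089 after prednisolone. The share of all LEF1 regions with a peak in all 6 full TCF7L2 lists is not given here.

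The other LEF1 regions found in all 6 libraries were weaker. The one at chr9:23586008-23589166 had folds of 6.02, 8.16 and 11.6 in control cells and 9.97, 6.24 and 5.20 after prednisolone. All 6 full TCF7L2 lists had a peak there. That at chr9:19173539-19175160 had folds of 6.27, 7.35 and 10.1, and 6.66, 4.75 and 5.10. Its ranks were 7052, 6666 and 2636 in control cells and 9373, 13644 and 11999 after prednisolone, so that every treated rank lay behind every control rank. This was so in 1 of the 5 regions, and in 14.7% of the 7567 LEF1 regions with a top peak in all 6 libraries. At chr9:19050306-19051517 the folds were 6.23, 6.58 and 7.13, and 5.97, 7.10 and 5.35, and no TCF7L2 list had a peak. The span had no TCF7L2 region found in all 6 libraries, so none of these 5 regions could overlap one. Over all chromosomes 8.14% of 7567 such LEF1 regions overlapped such a TCF7L2 region. In the opposite direction 35.7% of 1749 such TCF7L2 regions overlapped a LEF1 one.

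**Figure D5:**
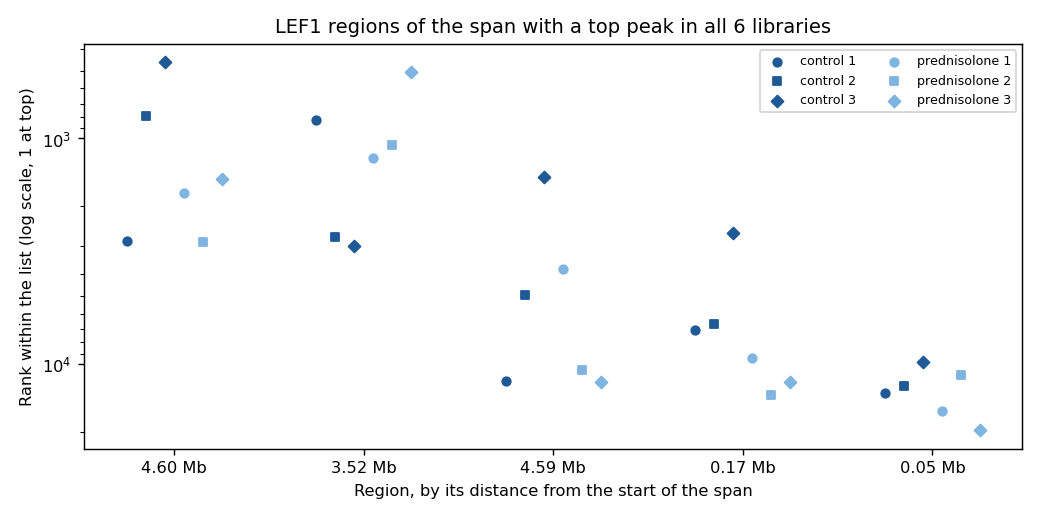
Rank of the best peak within each LEF1 list (log scale, rank 1 at the top) for the 5 regions of the span with a top peak in all 6 libraries, labelled by distance from the start of the span. Control and prednisolone ranks overlap in 4 of the regions; in the one 0.175 Mb from the start of the span every prednisolone rank lies behind every control rank.

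Regions with a top peak in the 3 prednisolone lists and in none of the controls were counted as gained, and the reverse as lost. No LEF1 region of the span was gained, against 2.83% of all LEF1 regions, and 1 of 23 was lost, against 1.94%. For TCF7L2 none was gained, against 0.367%, and 2 of 65 were lost, against 1.23%. The LEF1 count of lost regions was 2 without control 2 and 3 without control 3, where the share over all regions was also higher, at 3.55% and 3.70%. With so few regions these counts do not set the span apart from the background.

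The lost LEF1 region, chr9:22208117-22209871, lay 63.1 kb right of the peak-poor stretch, within the dense bin there. It ranked 16149, 10112 and 5562 in the control lists. Each full prednisolone list still had a peak in it, at ranks 39115, 41309 and 72147. That these lie behind every control rank follows from the call. Folds there were 3.73, 3.94 and 2.85, against 6.68, 7.02 and 10.5 in control cells, in a region picked by its ranks. These folds are relative to each list's own background.

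One lost TCF7L2 region, chr9:23599888-23601210, lay within the strongest LEF1 region of the span, where all 6 LEF1 lists had a top peak. TCF7L2 peaks there ranked 11930, 17277 and 4999 in control cells, with folds of 3.31, 3.21 and 4.70. Control −log10 q-values there were 1.24, 0.807 and 3.66. After prednisolone, replicates 1 and 2 had weaker peaks with folds of 2.49 and 2.22, and replicate 3 had none. That no treated list had a top peak there follows from the call. The other, chr9:19102017-19102862, ranked 6023, 16684 and 8803 in control cells, with −log10 q-values of 2.43, 0.862 and 2.15. It had a peak, at a fold of 2.40, in prednisolone 1 alone among the treated lists, and was likewise picked by its ranks. The most widely shared TCF7L2 region, in 5 of 6 libraries, lay at chr9:23586607-23588041, inside a LEF1 region named above, with folds of 5.41, 4.25 and 4.69 in control cells and 3.93, 4.04 and 2.64 after prednisolone. It was singled out after its values were seen.

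Nearest to the peak-poor stretch, a TCF7L2 peak at chr9:20297561-20297846 lay 2.14 kb from its left edge. It was in prednisolone 2 alone, with a fold of 3.38 and a −log10 q-value of 0.614. The nearest LEF1 region on that side, chr9:19456397-19458186, was 842 kb away, so no LEF1 top peak came close to the left edge. On the right the nearest LEF1 region was chr9:22206633-22207273, at 60.8 kb, with a top peak in prednisolone 1 alone. The nearest TCF7L2 region there, chr9:22208950-22209277, at 63.0 kb, had a top peak in prednisolone 2 alone and lay within the lost LEF1 region.

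Peaks of the span differed from their lists in length and, for TCF7L2, in q-value. Median fold was 2.22 to 2.85 in the span and 2.22 to 3.00 over the LEF1 lists, and 1.93 to 2.67 and 2.19 to 2.46 for TCF7L2. Median peak length was 268.5 to 379 bp in the span for LEF1, where the full lists had 306 to 409 bp, and 232 to 303 bp for TCF7L2, where they had 241 to 323 bp; it was shorter in the span in all 12 lists. A q-value of 1 was more frequent in the span in all 6 TCF7L2 lists, at 54.2% to 84.8%. Among LEF1 lists it was more frequent in the span in prednisolone 2, at 33.8% against 20.7% of the list, and in prednisolone 3, at 11.2% against 9.27%. Median fold was lower in the span than in the list in TCF7L2 control 2 (1.96 against 2.19), control 3 (1.93 against 2.25) and prednisolone 1 (1.95 against 2.24). The same held in TCF7L2 control 1 (2.24 against 2.27) and in LEF1 prednisolone 1 (2.55 against 2.67) and 3 (2.76 against 3.00). It was higher in LEF1 control 2 (2.85 against 2.80) and control 3 (2.81 against 2.74) and in TCF7L2 prednisolone 3 (2.67 against 2.46), and equal in the remaining lists.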

How the data were processed

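The submitters' processing notes name MACS2 and hg19; each deposited list holds 1 sample. The aligner, versions, background library and duplicate handling are not given in the sources used here. For each peak the authors deposited a fold ratio, a −log10 p-value, a −log10 q-value and a summit offset; all lists end at a p-value of 0.05. Read depth is unknown; the length of a list stands in for it, and 3 replicates per group limit the precision.

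Summits were start plus offset, and printed positions count from 1. Densities count all listed bases, unsequenced ones included. Folds and ranks describe peaks within their own list. Ties in p-value and fold were ordered at random (seed 1). In TCF7L2 control 2 and prednisolone 1 and 3 this order filled 1659, 2231 and 7599 of the 20000 top places. Exact permutation tests and merging were run with Python 3.11.15, numpy and pandas and tested on simulated data. The named regions were up to 5 per factor with the best worst rank over 6 libraries (5 for LEF1, none for TCF7L2), gained and lost regions and those nearest the stretch. The members, bins and lists were chosen with earlier results of these data known. No hg19 sequence or annotation was used here, so peak sequences and gene assignments are not given.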

Additional observations from a re-analysis of the deposited data

How the results depend on the processing

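Leaving out each library in turn gave log2 differences of span share of −0.0021 to 0.24 for LEF1 prednisolone against control, 0.0056 to 0.37 for TCF7L2, 0.77 to 0.96 for TCF7L2 against LEF1 and −0.15 to 0.23 between the treatment effects. It gave density ratios of 0.294 to 0.324 for LEF1 and 0.532 to 0.603 for TCF7L2, 785 to 788 kb for the longest distance without a summit and counts of 0 (LEF1 gained), 1 to 3 (LEF1 lost), 0 (TCF7L2 gained) and 2 (TCF7L2 lost). The LEF1 treatment difference reversed with peaks from a −log10 q-value of 2 (−0.41) or 5 (−0.62) upward and among top peaks (−0.31, −0.31 without peaks equal to the last and −0.37 with all of them). Without the equal peaks the TCF7L2 treatment difference (−0.0086) and the difference between factors (−0.20) reversed too. With the top peaks the difference between factors was 0.026, and with all equal peaks 0.42, neither past the threshold, while the difference between treatment effects was 0.89, 0.30 and 0.94 with the top peaks, without the equal ones and with all of them (permutation p = 0.11, 0.56 and 0.03). With either q-value limit, lists without a peak in the span left no value for TCF7L2.

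Relative density with −log10 q-value limits of 2 and 5, among top peaks and without the stretch was 0.258, 0.247, 0.245 and 0.407 for LEF1, and 0.138, 0.0268, 0.264 and 0.756 for TCF7L2, of which 0.0268 rests on 1 peak, in control 1, with 0 in the other lists. The longest distance without a summit was 1928 kb, 2749 kb and 1909 kb at those q-values and among top peaks, and 1243 kb in the LEF1 lists; removing weak peaks or lists can only lengthen it. From all peaks 1 and 5 of 662 LEF1 regions were gained and lost (0.282% and 0.710% over all chromosomes), and 3 and 5 of 2470 for TCF7L2 (0.126% and 0.439%). With the limit of 2 on the −log10 q-value they were 2 and 3 of 102 (1.08% and 1.16%), and 0 and 0 of 7 (0.794% and 3.76%). The cause of these shifts was not tested.

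In tests blocked by replicate number, the difference of 0.88 between factors kept p = 0.03125 (exact sign permutation; 6 pairs cannot give less). The 3 treatment contrasts of 0.16, 0.22 and 0.06 each had p = 0.5 in that exact test, where 3 pairs cannot go below 0.25. Over top-peak regions, libraries of the same number did not deviate together (correlations −0.056 to −0.00078). In list length they ran alike: for both factors control 1 was the longest control list and control 2 the shortest. After prednisolone, replicate 2 was the longest for both and replicate 3 the shortest. Replicate 2 also had the highest span share for both, while the order of the control shares was opposite. The correlations therefore cannot decide whether the numbers pair the samples. The choices without the stretch, among equal peaks and by megabase were made after seeing the data.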
